A study of Mus musculus with 10 samples.

Results

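The heat shock chaperones of the cytosol and the mitochondria were examined in the lactating mammary glands of 10 mice, 5 of the QSi5 strain and 5 of the CBA strain. A list of 40 genes was set by symbol: the HSP90 chaperones and their cochaperones, the HSP70 and HSP110 chaperones, their J-domain partners and nucleotide exchange factors, the small heat shock proteins, the mitochondrial chaperones, subunits of the CCT chaperonin and the heat shock factors. Of these, 37 had at least 1 probeset (a group of probes summarised as 1 value) that the platform annotation gives to that symbol alone, among 12393 genes so annotated on the arrays. The 37 genes were read by 88 probesets. Hsp90ab1, Ptges3 and Hsf1 had no such probeset and were not analysed here. A further 3 genes, Hspa1a, Cryab and Hsf2, did not reach an unlogged mean of 20 in either strain and were not tested, which left 34 genes and 61 probesets.

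QSi5 is an inbred line bred from outbred Quackenbush-Swiss stock with selection for large litters, and CBA (CBA/CaH) is a long-established inbred strain. All mice were females of breeding age in their first lactation, untreated apart from the forced weaning at day 9, when an inguinal gland was taken from each. Each mouse gave 1 array, of the chip type MOE430 2.0 for 3 mice of each strain and MOE430A 2.0 for the other 2. Values are log2 intensities after joint normalisation, and a difference is QSi5 minus CBA on that scale. Because RNA was extracted from a piece of gland tissue with its cell types mixed, fewer cells of a type and less RNA per cell cannot be told apart.

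Chaperones bind unfolded stretches of other proteins and help them fold, assemble or cross membranes. HSP70 proteins work in cycles of ATP hydrolysis that are started by J-domain proteins and ended by exchange factors such as the BAG and HSP110 proteins. HSP90 receives partly folded clients through cochaperones, the ring-shaped CCT complex encloses actin and tubulin, and a second set of chaperones serves the mitochondrial matrix. Many of these genes are switched on together by the heat shock factors, which bind inverted repeats of the letters GAA, the heat shock element, although in unstressed tissue a good part of their transcription does not depend on it.

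In short, with each gene counted on its brightest probeset, 1 of the 34 tested genes passed the test and it was lower in QSi5: Cct3, a subunit of the CCT chaperonin. On these probesets no gene was higher, at an adjusted p under 0.05 or at an unadjusted p under 0.05 (0 in both cases). Among the other probesets, those of Dnajc5 included 1 called lower (-1.10, adjusted p 0.000242 by limma) and 1 called higher (0.42, adjusted p 0.0322 by limma). Over all 7361 genes tested, 1.39% were lower and 1.32% were higher at the same threshold, so a count of 1 in 34 (2.94%) is near the background. At an unadjusted p under 0.01, 6 of the 34 genes were lower in QSi5 (17.6%, against 3.31% of all genes), namely Cct3, Bag3, Hspa8, Hspa1b, Hspd1 and Dnaja1. In 27 of the 34 genes (79.4%) the difference lay below 0, against 49.1% of all genes. The median difference was -0.15, against 0.004 over all genes. These shares are descriptions of the list, which was chosen with earlier results of these data known and was not tested as a set.

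**Figure D1:**
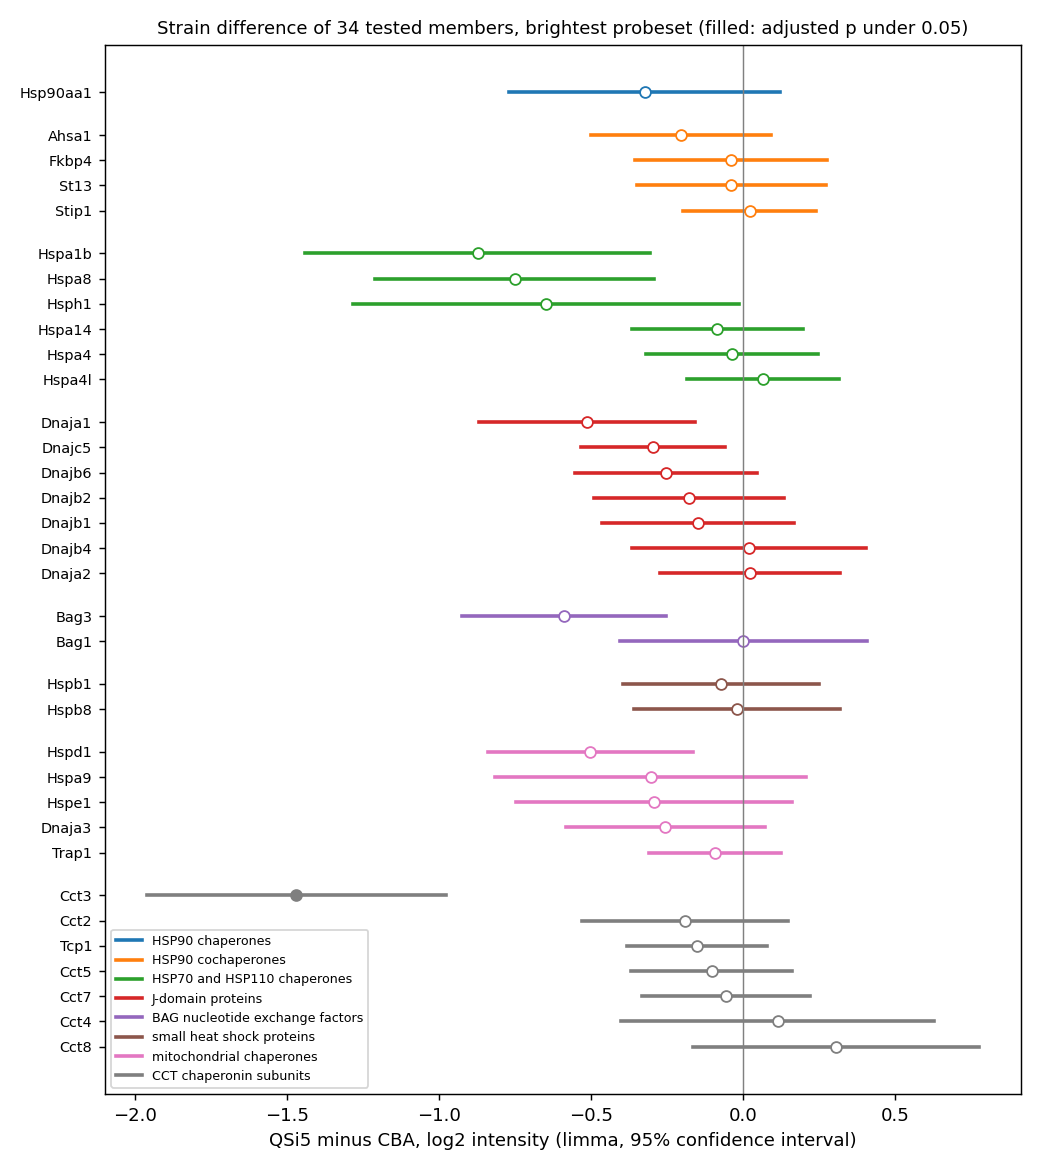
Strain difference of the 34 tested genes on their brightest probeset, as QSi5 minus CBA in log2 intensity on the horizontal axis, with genes grouped and coloured by role. Points are limma estimates, bars are 95% confidence intervals, and the filled point is the 1 gene at an adjusted p under 0.05, Cct3 at -1.47, while 27 points lie left of 0.

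The bases before the start sites of some of the genes are shown first, since members that are known to respond together can share the heat shock element. Some of these genes were chosen because they hold it and not for their strain difference, so the printed set leans towards genes with a match. They come from RefSeq, build GRCm38.p6, which is the C57BL/6J reference and not the sequence of either strain. The table gives windows of 300 bases, 250 before and 50 after each start, and 31 of the 40 genes matched by symbol. The letters searched, on both strands, were TTCNNGAA and GAANNTTC, each a pair of inverted units, and GAANNTTCNNGAA (on the other strand TTCNNGAANNTTC), a run of 3 units that contains both pairs. Only bases before the start are printed, and capitals mark the matches.

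Hspa1b and Hspa1a, the stress-inducible HSP70 genes, lie side by side on chromosome 17 (chr17:34959239-34959488 and chr17:34972157-34972406, minus strand). Their windows are equal at 247 of 250 positions (98.8%) and both hold the pair GAAGATTC, which begins at base -104:
Hspa1b: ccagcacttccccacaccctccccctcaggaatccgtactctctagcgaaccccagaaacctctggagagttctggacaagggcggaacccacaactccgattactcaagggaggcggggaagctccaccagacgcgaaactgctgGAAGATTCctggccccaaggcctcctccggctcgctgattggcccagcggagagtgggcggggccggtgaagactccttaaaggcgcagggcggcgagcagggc
Hspa1a: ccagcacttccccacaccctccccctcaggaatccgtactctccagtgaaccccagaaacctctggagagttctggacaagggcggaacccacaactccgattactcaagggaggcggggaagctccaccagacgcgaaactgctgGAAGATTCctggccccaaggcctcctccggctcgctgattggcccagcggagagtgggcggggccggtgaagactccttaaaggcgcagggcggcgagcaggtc
Hspd1 and Hspe1, the mitochondrial HSP60 and HSP10 genes, are neighbours transcribed in opposite directions on chromosome 1. The 215 bases between the Hspe1 start and the nearer Hspd1 start (chr1:55087933-55088147, shown on the plus strand) hold 4 alternating units in 1 run:
Hspe1 and Hspd1: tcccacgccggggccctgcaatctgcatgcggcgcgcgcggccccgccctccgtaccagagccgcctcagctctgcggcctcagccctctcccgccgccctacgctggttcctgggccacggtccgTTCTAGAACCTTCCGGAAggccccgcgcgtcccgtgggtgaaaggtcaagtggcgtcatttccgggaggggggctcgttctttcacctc
Hsph1, an HSP110 exchange factor (chr5:149636337-149636586, minus strand), and Dnajb6, a J-domain protein that restrains protein aggregation (chr5:29735648-29735897, plus strand), complete the genes with 3 units, and in Hsph1 the run of 3 lies after the start, from base 37, and is not printed:
Hsph1: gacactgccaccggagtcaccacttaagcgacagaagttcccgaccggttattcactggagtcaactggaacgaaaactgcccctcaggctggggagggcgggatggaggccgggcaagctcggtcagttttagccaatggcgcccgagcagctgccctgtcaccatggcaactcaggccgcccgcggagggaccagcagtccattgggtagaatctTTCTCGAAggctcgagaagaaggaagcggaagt
Dnajb6: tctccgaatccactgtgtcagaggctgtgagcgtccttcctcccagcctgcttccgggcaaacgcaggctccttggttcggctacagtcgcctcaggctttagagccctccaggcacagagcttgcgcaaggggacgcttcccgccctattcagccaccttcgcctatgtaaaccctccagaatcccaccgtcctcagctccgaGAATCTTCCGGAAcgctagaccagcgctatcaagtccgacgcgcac
The window of Cct3, the gene that passed the test (chr3:88296885-88297134, plus strand), held no match:
Cct3: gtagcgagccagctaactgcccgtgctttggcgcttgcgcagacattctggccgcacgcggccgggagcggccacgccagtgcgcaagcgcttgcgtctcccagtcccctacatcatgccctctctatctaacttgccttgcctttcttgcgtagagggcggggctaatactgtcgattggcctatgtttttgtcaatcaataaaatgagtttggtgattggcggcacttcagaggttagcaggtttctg

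Over all 27025 genes with a window, TTCNNGAA was found in 9.6%, GAANNTTC in 9.04% and the run of 3 units in 0.662%. Among the 31 heat shock chaperone genes with a window, 6 held TTCNNGAA, 12 held GAANNTTC and 4 held the run of 3, Hsph1, Dnajb6, Hspd1 and Hspe1. Of the 6 genes at an unadjusted p under 0.01, Hspa1b, Dnaja1 (base -124), Bag3 (base 43) and Hspd1 held GAANNTTC, Cct3 held no match, and Hspa8 had no window in the table. Genes with a match were also among those with differences close to 0, as for Hspb1 (base -117 and base -97, difference -0.07) and Fkbp4 (base -151, difference -0.04). A match describes letters and not binding, and no binding was measured.

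The HSP70 and HSP110 group held the largest differences outside the CCT complex on brightest probesets. Of 6 tested genes 5 lay below 0, 3 of them at an unadjusted p under 0.05 and 2 under 0.01, and 0 passed the adjusted threshold of limma. Probeset 1452318_a_at of Hspa1b, the inducible HSP70, read 5.01, 6.33, 5.53, 4.94 and 5.27 in CBA replicates 1 to 5 and 4.96, 4.88, 4.34, 4.02 and 4.52 in QSi5 replicates 1 to 5. The strains met at a single point, with QSi5 replicate 1 just above CBA replicate 4, and the CBA spread came mostly from replicate 2. The difference was -0.87 (SE 0.26, 95% confidence interval -1.44 to -0.31, 1.83-fold lower in QSi5), with an adjusted p of 0.115 by limma. Within chips it was -0.78 on the MOE430 2.0 and -1.01 on the MOE430A 2.0 arrays, and with chip type as a block the adjusted p was 0.0105. Since Hspa1a and Hspa1b are near-identical, the share of each in this signal is uncertain. The signal was also weak, as the QSi5 mean of 4.54 lay just above the filter at 4.32 on the log2 scale. Hspa1b probesets 1427126_at and 1427127_x_at were below the filter. They averaged 3.11 and 3.75 in CBA and 2.70 and 3.11 in QSi5. The only Hspa1a probeset, 1452388_at, averaged 3.31 ± 0.21 in CBA and 3.00 ± 0.10 in QSi5 (SD, n = 5 each) and was below the filter.

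Hspa8 encodes HSC70, the constitutive HSP70 that also uncoats clathrin vesicles. Its brightest probeset, 1455789_x_at, read 10.11, 10.29, 10.85, 9.60 and 10.19 in the CBA mice and 9.86, 9.22, 9.10, 9.54 and 9.55 in the QSi5 mice. All QSi5 arrays but replicate 1 lay below every CBA array. The difference was -0.75 (SE 0.21, 1.68-fold lower) with an adjusted p of 0.0913 by limma, and within chips it was -0.57 on MOE430 2.0 and -1.03 on MOE430A 2.0 arrays. The other 2 Hspa8 probesets differed by -0.70 and -0.62, so the 3 gave like values. Without CBA replicate 4, the lowest CBA array, Hspa8 passed at -0.90 (adjusted p 0.0235), and without CBA replicate 3, the highest, it stood at -0.59 (adjusted p 0.140).

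Hsph1, the HSP110 protein that frees HSP70 of ADP, had the largest spread among mice of a strain of any gene in the list (pooled SD 0.55). It read 5.44, 5.88, 6.31, 5.71 and 6.24 in CBA and 6.11, 4.30, 5.06, 5.20 and 5.66 in QSi5. The lowest array was QSi5 replicate 2, while QSi5 replicate 1 lay within the CBA range. The difference of -0.65 (SE 0.29) had an adjusted p of 0.320 and was -0.41 without QSi5 replicate 2. The remaining HSP70 relatives, Hspa4, Hspa4l and Hspa14, which act in nucleotide exchange or at the ribosome, differed by -0.04, 0.07 and -0.08, with 95% intervals inside -0.37 to 0.32.

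**Figure D2:**
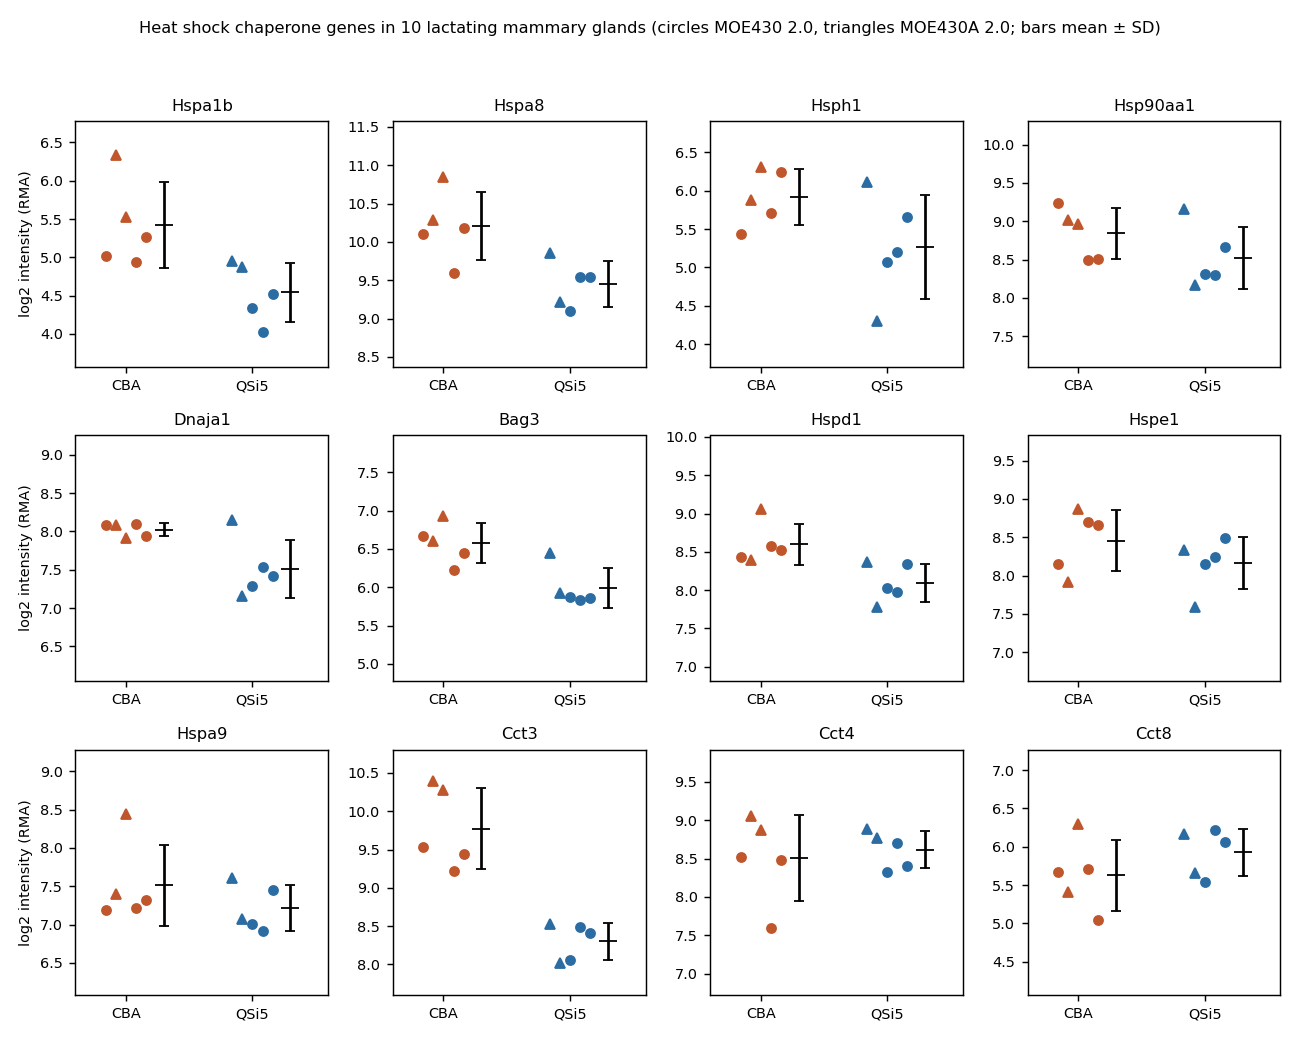
Log2 intensity of 12 heat shock chaperone genes on their brightest probeset, in CBA (orange) and QSi5 (blue), with 1 point per mouse, circles for MOE430 2.0 arrays and triangles for MOE430A 2.0 arrays. Every vertical axis spans the same number of log2 units, black bars are means with SD (n = 5), and only Cct3 and Hspd1 show strains that do not overlap.

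HSP90 was represented by Hsp90aa1, the inducible cytosolic form. Its 3 tested probesets all lay below 0, at -0.32, -0.64 and -0.78, with limma adjusted p-values of 0.513, 0.196 and 0.191. The brightest, 1438902_a_at, ran from 8.49 to 9.24 in CBA and from 8.17 to 9.16 in QSi5, and the ranges overlapped over most of their length. The cochaperones of HSP90 lay closer to 0. Stip1, which bridges HSP70 and HSP90, differed by 0.02 (SE 0.10), Ahsa1, which speeds the ATPase of HSP90, by -0.20 (SE 0.14), the immunophilin Fkbp4 by -0.04 (SE 0.15) and St13, an HSP70-interacting protein, by -0.04 (SE 0.14), and none passed.

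Among the 7 J-domain proteins, 5 lay below 0, and 0 passed by limma on the brightest probeset, with 2 at an unadjusted p under 0.05. Dnaja1, a main partner of cytosolic HSP70, read 8.08, 8.09, 7.92, 8.09 and 7.94 in CBA and 8.15, 7.16, 7.28, 7.54 and 7.42 in QSi5 (probeset 1416288_at). The CBA mice were tightly grouped (SD 0.09, against 0.38 in QSi5) and QSi5 replicate 1 stood above them all, with the other QSi5 mice below them all. The difference was -0.51 (SE 0.16) with an adjusted p of 0.140 by limma, with -0.62 on MOE430 2.0 and -0.35 on MOE430A 2.0 arrays. Leaving out QSi5 replicate 1 brought it to -0.67 (adjusted p 0.0068), while a second probeset over all arrays gave -0.36. Dnajb1, the classical HSP40, differed by -0.15 (SE 0.15), Dnajb6 by -0.25 (SE 0.14), Dnajb2, which passes clients to the proteasome, by -0.18 (SE 0.14), and Dnaja2 and Dnajb4 by 0.02 each. Single mice weighed on these small differences, which became -0.05 for Dnajb1 without QSi5 replicate 2, and -0.15 for Dnajb6 and -0.10 for Dnajb2 without CBA replicate 3.

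Dnajc5, the cysteine string protein of secretory and synaptic vesicles, gave opposite calls on different probesets. Probeset 1448850_a_at read 6.92, 6.92, 7.17, 6.74 and 6.73 in CBA and 6.08, 5.86, 5.75, 5.64 and 5.64 in QSi5. Every QSi5 array lay below every CBA array, and the difference was -1.10 (SE 0.12, 2.14-fold lower, limma adjusted p 0.000242), with -1.12 on MOE430 2.0 and -1.07 on MOE430A 2.0 arrays. Probeset 1448851_a_at read 5.05, 4.82, 5.06, 5.02 and 5.06 in CBA and 5.53, 5.29, 5.46, 5.49 and 5.34 in QSi5. Here every QSi5 array lay above every CBA array, at a difference of 0.42 (SE 0.09, adjusted p 0.0322). The brightest probeset of Dnajc5, 1436180_at, read 7.90, 7.55, 7.92, 7.76 and 7.59 in CBA and 7.62, 7.36, 7.52, 7.35 and 7.38 in QSi5. The strains overlapped only where QSi5 replicate 1 exceeded CBA replicates 2 and 5, the difference was -0.30 (SE 0.11, adjusted p 0.215), and the last probeset gave -0.23. The higher call lost significance when any of CBA replicates 1, 2 or 5 or QSi5 replicates 1, 3, 4 or 5 was left out, at adjusted p-values up to 0.0966 and differences from 0.37 to 0.45 over all single omissions, whereas the lower call of 1448850_a_at held in each of these. No single direction can be given for Dnajc5 from these arrays.

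Bag3, an exchange factor that links HSP70 to selective autophagy, read 6.67, 6.61, 6.93, 6.23 and 6.44 in CBA and 6.45, 5.92, 5.87, 5.83 and 5.85 in QSi5. The QSi5 mice other than replicate 1 were within a narrow band below all CBA mice. The difference was -0.59 (SE 0.15, 1.5-fold lower) with an adjusted p of 0.0686 by limma, and it was nearly equal on MOE430 2.0 (-0.59) and MOE430A 2.0 arrays (-0.58). With chip type as a block Bag3 passed (adjusted p 0.0265), as it did without CBA replicate 4 (-0.68, adjusted p 0.0345) or without QSi5 replicate 1 (-0.70, adjusted p 0.0200). Bag1, another exchange factor, differed by 0.00 (SE 0.19), with -0.38 on MOE430A 2.0 and 0.26 on MOE430 2.0 arrays.

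The small heat shock proteins hold unfolded proteins without using ATP. Hspb1 and Hspb8 differed by -0.07 (SE 0.15) and -0.02 (SE 0.16), and Hspb1 lay on opposite sides of 0 on the 2 chip types (-0.33 and 0.31). The 3 probesets of Cryab averaged from 2.55 to 3.35 in the 2 strains, below the filter at 4.32 on the log2 scale. Hsf2, a heat shock factor, averaged 2.23 in CBA and 2.17 in QSi5, also below it.

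On their brightest probesets all 5 mitochondrial chaperones lay below 0, on each chip type as well, and 0 passed by limma, with 1 at an unadjusted p under 0.05. Hspd1, the HSP60 chaperonin of the matrix, read 8.44, 8.39, 9.06, 8.58 and 8.53 in CBA and 8.36, 7.78, 8.03, 7.97 and 8.34 in QSi5. Every QSi5 array lay below every CBA array, by a narrow margin between QSi5 replicate 1 and CBA replicate 2. Such a separation in the lower direction was seen in 2 of the 34 genes, Hspd1 and Cct3 (5.88%), and in 2.65% of all genes tested. The Hspd1 difference was -0.50 (SE 0.15, 1.42-fold lower) with an adjusted p of 0.129 by limma, at -0.40 on MOE430 2.0 arrays, -0.65 on MOE430A 2.0 arrays and -0.39 without CBA replicate 3. Hspe1, the lid of HSP60, which shares the printed start region with Hspd1, differed by -0.29 (SE 0.21, adjusted p 0.572), and by -0.15 without QSi5 replicate 2. It ran from 7.92 to 8.87 in CBA and from 7.59 to 8.50 in QSi5, so the pair did not separate the strains alike, although the difference between the pair was not tested.

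Hspa9, the mitochondrial HSP70 that drives protein import, read 7.19, 7.41, 8.45, 7.22 and 7.32 in CBA and 7.61, 7.08, 7.01, 6.92 and 7.45 in QSi5. CBA replicate 3 stood far above all others, and the rest of both strains intermingled. The difference was -0.30 (SE 0.23, adjusted p 0.604) and -0.07 without CBA replicate 3. A second Hspa9 probeset, 1418504_at, differed by -0.52 (SE 0.23, limma p 0.0473 unadjusted and 0.324 adjusted), and CBA replicate 3 was again highest, at 6.69. Trap1, the HSP90 of mitochondria, differed by -0.09 (SE 0.10) and Dnaja3, the matrix J-domain protein, by -0.26 (SE 0.15), or by -0.16 without either CBA replicate 3 or QSi5 replicate 2.

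In the CCT chaperonin, Cct3 passed the test and the other 6 subunits on the list did not. Its brightest probeset, 1448178_a_at, read 9.53, 10.39, 10.28, 9.22 and 9.44 in CBA and 8.53, 8.02, 8.06, 8.49 and 8.42 in QSi5. There was no overlap, and the 2 highest CBA arrays were the MOE430A 2.0 arrays, replicates 2 and 3. The means were 9.77 ± 0.53 and 8.30 ± 0.24 (SD, n = 5 each), a difference of -1.47 (SE 0.23, 95% confidence interval -1.96 to -0.98, 2.77-fold lower in QSi5) with an adjusted p of 0.00287 by limma. Within chips the difference was -1.07 on MOE430 2.0 and -2.07 on MOE430A 2.0 arrays. It passed in each of the 22 alternative analyses, between -2.07 and -1.07. The 3 other Cct3 probesets also lay below 0, at -0.54, -0.46 and -0.26, but did not pass (adjusted p 0.0738, 0.247 and 0.380), so the 4 probesets shared a direction and not a size.

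**Figure D3:**
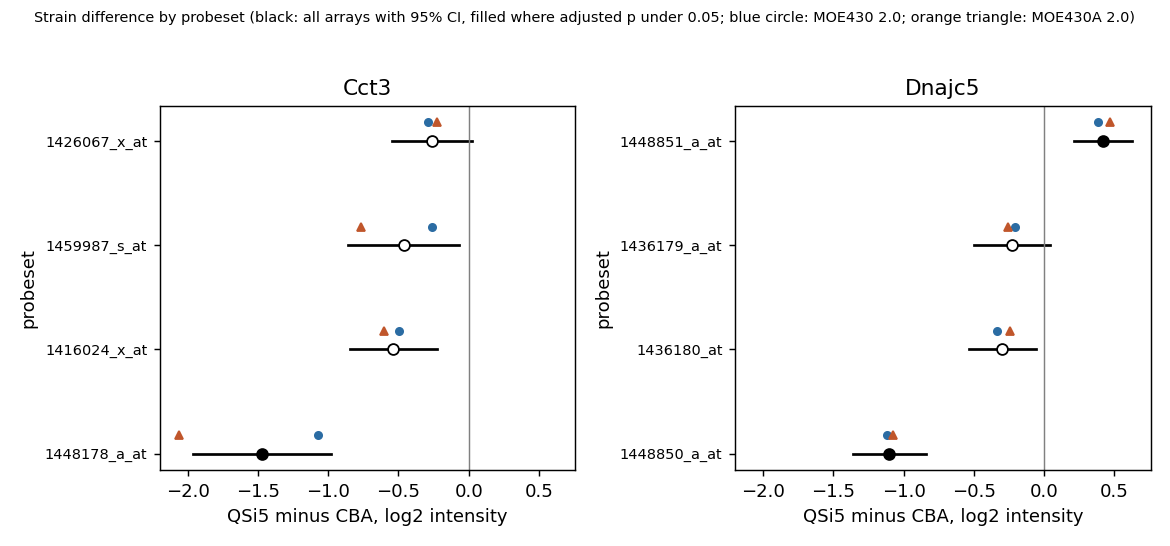
Strain difference, QSi5 minus CBA in log2 intensity, for each tested probeset of Cct3 (left) and Dnajc5 (right). Black points with 95% confidence intervals are limma estimates over 10 arrays, filled at an adjusted p under 0.05, and the small blue circles and orange triangles are the differences within MOE430 2.0 and MOE430A 2.0 arrays. All 4 Cct3 probesets lie below 0, from -1.47 to -0.26, whereas the Dnajc5 probesets run from -1.10 to 0.42.

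The other subunits assemble with Cct3 in equal numbers, and whether their differences were unlike that of Cct3 was not tested. Tcp1 differed by -0.15 (SE 0.11), Cct2 by -0.19 (SE 0.16, and -0.05 without CBA replicate 3), Cct5 by -0.10 (SE 0.12) and Cct7 by -0.06 (SE 0.13), and none passed. Cct4 read 8.52, 9.05, 8.87, 7.59 and 8.48 in CBA and 8.89, 8.77, 8.32, 8.71 and 8.40 in QSi5. CBA replicate 4 was lowest by a wide margin and the difference was 0.11 (SE 0.24). Cct8 read 5.68, 5.41, 6.29, 5.71 and 5.04 in CBA and 6.16, 5.66, 5.55, 6.22 and 6.07 in QSi5, with CBA on both sides of the QSi5 range. Its difference of 0.30 (SE 0.22, 95% confidence interval -0.17 to 0.78) was the highest in the list and did not pass (adjusted p 0.570), and it was 0.16 without CBA replicate 5 and 0.47 without CBA replicate 3.

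Several genes could be read more than once. Of 17 genes with several tested probesets, 11 kept 1 sign and 6 had both signs, namely St13, Dnaja2, Dnajc5, Hspb1, Cct2 and Cct4. Over the 61 probesets, 50 lay below 0 and 3 passed (2 lower, 1 higher), against 2.94% of all 11412 probesets tested in either direction. That count was 7 without CBA replicate 4 and 8 without QSi5 replicate 1.

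Many of the genes were high or low in the same few arrays. CBA replicate 3 was the highest array for 17 of the 34 genes, with a median deviation of 0.37 from the mean of 10 arrays, and QSi5 replicate 2 was the lowest for 15, with a median deviation of -0.27. QSi5 replicate 1 lay above the 10-array mean in 29 genes, and QSi5 replicates 2 and 4 in 5 genes each. The median pooled SD within strains was 0.25, against 0.22 over all genes, and it was above the latter in 25 of 34. CBA replicate 3 also had the largest gap between the 3′ and 5′ control probesets of actin (4.0 log2 units, others 1.63 to 3.23), a sign of RNA quality, whose part in these values was not tested. The median difference of the list was -0.10 without CBA replicate 3, -0.13 without QSi5 replicate 2 and -0.07 without both, when 22 of 34 genes still lay below 0 and Cct3 alone passed. With CBA replicate 4 or QSi5 replicate 1 left out, 3 genes passed instead of 1.

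**Figure D4:**
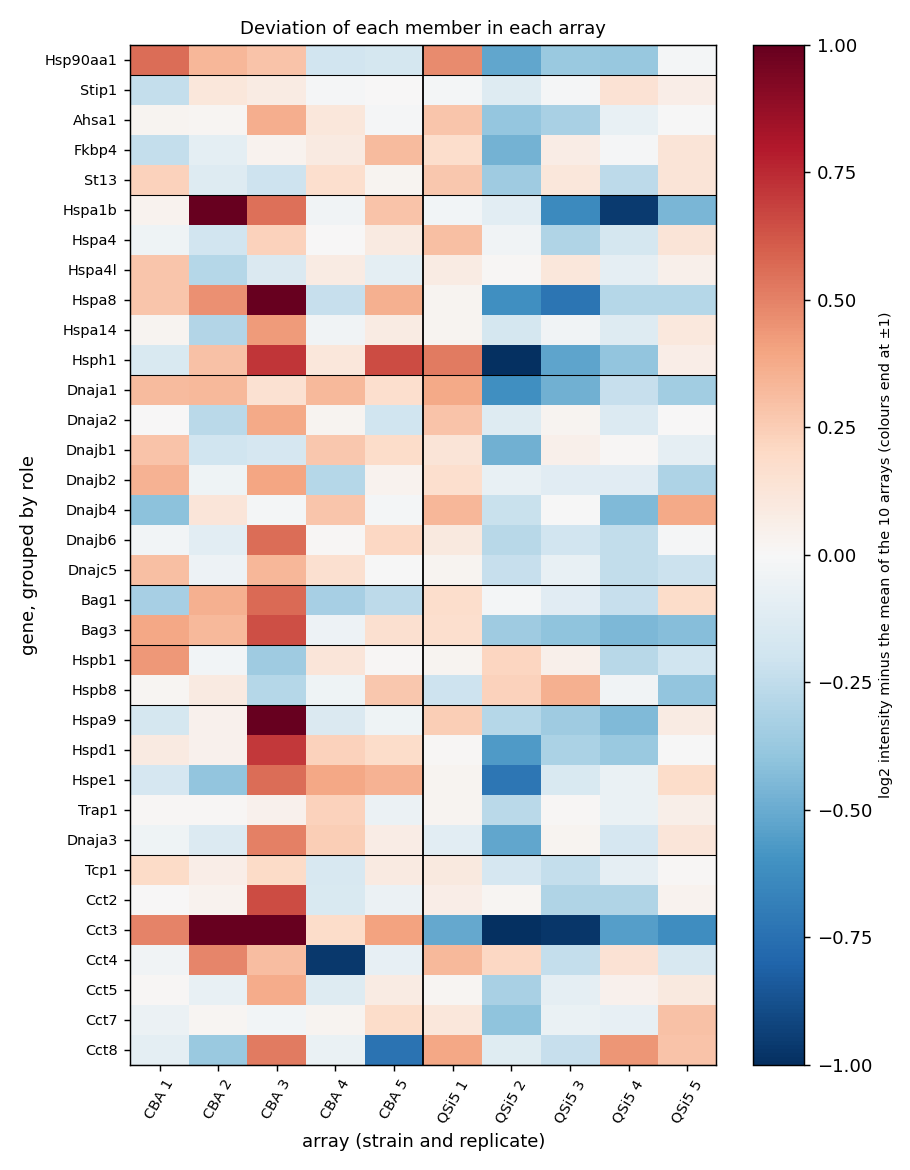
Deviation of each of the 34 tested genes (rows, grouped by role) from its own mean over 10 arrays, in log2 intensity, for each array (columns). Red is above and blue below the mean, and the colours end at ±1; CBA replicate 3 is red for most genes and QSi5 replicate 2 blue for most.

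Other chaperone genes of the same compartments, a further list of 78 of which 51 were tested, centred near 0 (median -0.02). Of them, 29 lay below 0 (56.9%, against 49.1% of all genes). In this list 1 gene passed (1.96%, against 1.39% of all genes called lower), Cct6a, a CCT subunit outside the list of 40. Cct6a differed by -0.49 (SE 0.12, adjusted p 0.0452 by limma), with means of 7.93 ± 0.17 in CBA and 7.44 ± 0.17 in QSi5 (SD, n = 5 each) and no overlap. Its call was lost without CBA replicate 1, 3, 4 or 5 or QSi5 replicate 1, 2, 3 or 5. The chaperones of the endoplasmic reticulum, which fold secreted proteins such as caseins, had a lower median (-0.47), with 17 of 19 below 0 (89.5%). At an unadjusted p under 0.01 by limma, 8 of the 19 were lower in QSi5 (42.1%, against 17.6% of the heat shock list and 3.31% of all genes). There, 2 genes passed (10.5%, against 1.39% of all genes called lower). They were the HSP110-type Hyou1 at -0.58 (SE 0.11, adjusted p 0.0133) and its fellow exchange factor Sil1 at -0.62 (SE 0.12, adjusted p 0.0172). The Hyou1 call rests on probeset 1423291_s_at, since the other tested probeset, 1423290_at, differed by 0.02 (SE 0.12, adjusted p 0.959). The count of 2 was 1 without CBA replicate 2 or QSi5 replicate 3 and 4 without QSi5 replicate 1. The endoplasmic reticulum genes were also highest in CBA replicate 3 (median deviation 0.48) and low in both QSi5 replicate 2 (-0.50) and QSi5 replicate 4 (-0.54). The heat shock genes were low in the same 2 arrays, with smaller median deviations of -0.27 and -0.17. No test between the lists was made, and all of them were chosen with earlier results of these data known.

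Markers of the secretory epithelium had mean levels from 11.96 to 12.24 in CBA and from 12.00 to 12.09 in QSi5, in keeping with the labelled tissue. Of 8 tested, 1 was called, Krt8, which was lower in QSi5 (-0.83). Lalba went the other way (0.40, adjusted p 0.0845 by limma) with no overlap of the strains, and Krt18 differed by 0.08. The median difference of the 8 was 0.005. Of 3 adipocyte markers tested 0 passed, with Fabp4 at -0.73, Adipoq at -0.07 and Lep at 0.09. Leukocyte markers ranged from 5.08 to 5.92 in CBA and from 5.15 to 8.21 in QSi5, the top value being QSi5 replicate 4. Immediate early stress genes, which respond to handling, ranged from 4.73 to 5.66 in CBA and from 4.55 to 5.26 in QSi5. All 4 tested lay below 0, with Fos at -0.62, Junb at -0.38, Ier2 at -0.29 and Egr1 at -0.14. Their median difference was -0.33, and 0 passed. The part of these cells or of handling in the chaperone values was not tested.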

How the data were processed

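RNA from the mammary glands of 5 QSi5 and 5 CBA females was hybridised to Affymetrix MOE430 2.0 (6 arrays) and MOE430A 2.0 (4 arrays) chips. The records give these chip types, while the methods name only the latter. The deposited log2 values were made by the authors with RMA in the affy package, normalised jointly over the 22690 probesets shared by both chips; versions are not given in the sources used here. The precision is set by the number of arrays.

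Strains were taken from the sample titles. After 64 control probesets were left out, probesets with an unlogged geometric mean over 20 in at least 1 strain were kept (11412 of 22626). The cutoff of 20 is that of the methods, which do not say how intensities were averaged. The strain difference (two-sided) came from lmFit and eBayes of limma 3.58.1, run in R 4.3.3, with Benjamini-Hochberg adjustment across the kept probesets and a threshold of 0.05. Genes were named from the platform annotation where it gave 1 symbol, and stood by their brightest kept probeset. Array values are given for genes with any probeset at an adjusted p under 0.05 or an unadjusted p under 0.01, with strains that do not overlap, or among the 6 largest pooled SDs; other genes by difference and range. Promoter windows were shown for genes that passed, that share near-identical sequence or that have one of the 6 largest SDs, where the table had an entry, except Cct8, which held no match, and Hspa9, and for the genes with 3 units. Start sites were read from RefSeq, and matches counted in Python. The fit was tested on simulated data. The genes and lists were chosen with earlier results of these data known. Each array came from a separate mouse. Alternatives were chip type as a block, each chip type alone, the replicate number as a block, other filters, normalisations and variance models, probesets by suffix, and leaving out each mouse.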

Additional observations from a re-analysis of the deposited data

Results flagged for a closer look

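In 4 of 68 groups of 5 arrays (34 genes, 2 strains), a single array lay farther from the others than Dixon's 95% critical value of 0.71 allows. Chance alone gives about 1 group in 20, so these 4 groups are near that share. CBA replicate 3 was the high array in 3 of them. It read 8.45 for Hspa9, with the other CBA mice at 7.19 to 7.41, 9.06 for Hspd1, with the others at 8.39 to 8.58, and 9.35 for Cct2, with the others at 8.55 to 8.74. QSi5 replicate 1 read 6.45 for Bag3, with the other QSi5 mice at 5.83 to 5.92.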

How the results depend on the processing

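Differences were followed over up to 22 alternatives for each tested heat shock chaperone gene and for the 2 called probesets of Dnajc5. Of these 784 differences, 764 kept their side of the threshold, 11 fell short of it and 9 passed it. All 11 that fell short came from the 2 Dnajc5 probesets, and Cct3 passed in all 22 alternatives. The 9 that newly passed were differences of genes. The sign changed in 51 of the 784 differences, in 15 genes whose differences over all arrays were at most 0.149 in size. These genes passed in 0 of the alternatives, and no called difference changed sign. The count of genes called lower (1) was 3 with chip type as a block, 3 after a second quantile normalisation, 2 with array weights, and 1 to 3 when each mouse was left out in turn; the count called higher was 0 in all of these. The count of probesets called (3) was 5 with chip type as a block, 5 after the second quantile normalisation, 5 with array weights and 4 with no filter on low values. It was 2 on the MOE430 2.0 arrays alone, 2 with the replicate block, 2 with an intensity minimum of 50, 1 on the MOE430A 2.0 arrays alone, and 2 to 8 with each mouse left out. For the other cytosolic and mitochondrial chaperones, the count of 1 was 0 on either chip type alone, with the replicate block, after the second quantile normalisation, with an intensity trend and with CBA replicate 3 and QSi5 replicate 2 both left out (a setting chosen after seeing the data), and 0 to 1 with each mouse left out. For the endoplasmic reticulum chaperones, the count of 2 rose to 4 with chip type as a block. It was 3 with an intensity minimum of 50, after the second quantile normalisation and with array weights. It fell to 1 on the MOE430 2.0 arrays alone, 0 on the MOE430A 2.0 arrays alone, 1 with the replicate block, 1 without probesets of the suffixes _x_at and _s_at, and 1 with the 2 named arrays left out. With each mouse left out it was 1 to 4. The median difference of the heat shock chaperones stayed below 0, from -0.20 to -0.10 with each mouse left out. The causes of these changes were not tested, but the chip types alone hold fewer arrays.

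Titles number the mice 1 to 5 in both strains. Same-numbered mice had correlations of their deviations from the strain means between -0.37 and 0.29, with 1 of 5 above 0.1. In 1 CBA array the best correlation was with its own number. No pairing by number was seen, though so few arrays cannot exclude one. With the replicate block, 1 heat shock chaperone gene was lower, Cct3, and the higher call of Dnajc5 probeset 1448851_a_at had an adjusted p of 0.0952.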
